A study of Mus musculus with 48 samples.

Results

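Interferon α1 (IFNα1), a type I interferon, was compared with no stimulation in NMM cells, a mouse melanoma line with a mutated NRAS gene. The libraries labelled with 5000 U/ml IFNα1 were set against the unstimulated in vitro libraries of the same duration. These were 8 of the 48 libraries of the series: 4 with IFNα1 and 4 without, 1 of each at 2, 6, 12 and 24 h of continuous stimulation.

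The study asked how cytokines change transcription in tumour cells, and set 11 cytokine conditions beside the unstimulated control. All cells were grown in vitro in IMDM medium with fetal calf serum, and all are labelled as NRAS mutated. The NMM cells here are 1 line, and the labels do not say whether the 4 durations of a group came from separate cultures. Poly(A) RNA was sequenced with a stranded kit. Besides the 8 libraries, 4 with 100 ng/ml IFNγ served as a comparison, and 4 with 6000 U/ml IL-2 as a second reference group. No library has a replicate at its own duration, so the p-values measure how the difference between groups varied over the durations, and part of that spread may be technical.

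Type I interferons bind the receptor IFNAR1/IFNAR2, which activates the kinases JAK1 and TYK2. Their signal leads to ISGF3, a complex with STAT2 and IRF9 that binds interferon-stimulated response elements (ISRE) in promoters. IFNγ uses a different receptor and acts mainly through gamma-activated sites (GAS). In tumour cells both interferons are known for antiviral genes, antigen presentation and inhibitory ligands such as PD-L1.

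The 8 libraries held 6046675 to 8851458 counts. Levels are given as CPM, the count relative to the scaled total of its library, and 1 count was worth 0.114 to 0.161 CPM. CPM are not corrected for gene length, so levels are compared within a gene only. The melanoma label was checked against 15 genes of the melanocyte lineage. Only Mitf, the lineage's transcription factor (3.52 to 9.79 CPM), and Mcam, an adhesion molecule (1.55 to 7.61 CPM), passed the filter on low counts. Tyr, Tyrp1, Dct, Mlana, Sox10, Slc45a2, Gpr143 and Kit had 0 counts in all 8 libraries. Of the 12 T and NK cell markers none passed the filter, and their summed level was 0 to 0.389 CPM without and 0.227 to 1.02 CPM with IFNα1. The 9 macrophage markers summed to 49.8 to 56.3 CPM without and 40.3 to 84.4 CPM with IFNα1, nearly all from Cd14. Cd68 stood at 1.61 to 4.09 CPM, while Adgre1, Lyz2 and Tyrobp were at 0. Of the 8 fibroblast markers, summing to 349 to 524 and 430.2 to 636 CPM, Col3a1 made up most and Thy1 was at 0. Dcn (16 to 47.1 CPM), Fbln1 (23.7 to 29.4 CPM) and Pdgfra (3.41 to 12.8 CPM) were counted in all 8 libraries. The 7 endothelial markers summed to 3.82 to 6.74 CPM without and 3.75 to 7.19 CPM with IFNα1. Most of this came from Cdh5 (3.52 to 7.06 CPM), and Cldn5 and Emcn were at 0. None of the tested markers of these cell types was called between the groups over all durations. With the 12 and 24 h libraries alone, 1 of 2 tested macrophage markers was called higher with IFNα1. The part of these cell types in the results below was not tested.

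Genes were called at an adjusted p under 0.05 in edgeR's quasi-likelihood test with Benjamini-Hochberg adjustment, with 1 term for each duration. A change is the log2 difference averaged over the 4 durations, followed by its standard error. Of 12203 genes tested, 754 were called higher with IFNα1 (6.18%) and 377 lower (3.09%). At least 2-fold changes were 254 increases and 3 decreases. The median change over all genes tested was -0.03. The count of decreases rested on the choice of libraries: it was 39 without the 12 h libraries, 88 without 6 h and 104 without 24 h. The count of increases was 474 without 6 h. With the 8 compared libraries alone 669 genes were called higher and 130 lower. In that setting 48 of the listed or rule-named genes lost their call and 116 kept it, and none changed direction. Where leaving out the libraries of a duration ended a call whose value is given, its adjusted p without them stands beside it. For increases the same is done for the compared libraries alone.

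Genes of the signalling pathway itself were partly higher. Of 9 tested members of the receptor and JAK-STAT list, 5 were called higher and none lower (median change 0.39). Stat2, the ISGF3 subunit that recruits coactivators, stood at 151, 171, 323 and 267 CPM at 2, 6, 12 and 24 h without and at 397, 394, 503 and 472 CPM with IFNα1 (1.02 ± 0.17, adjusted p = 9.46e-05). Every IFNα1 library lay above every unstimulated one. Irf9, the DNA-binding subunit, changed least of the 5 (0.39 ± 0.07, adjusted p = 0.00026), and its groups overlapped. Jak2, a kinase of the IFNγ receptor, stood at 72, 83.5, 68 and 67.1 CPM without and 104, 155, 113 and 99 CPM with IFNα1 (0.68 ± 0.12, adjusted p = 0.000117). Stat3 was higher by nearly the same amount at each duration, from 80.9, 83, 90.2 and 81.9 to 163, 166, 157 and 163 CPM (0.95 ± 0.25, adjusted p = 0.0124), but its adjusted p was 0.148 without 6 h, 0.0587 without 12 h and 0.0879 without 24 h. The receptor chains Ifnar1 (0.02, interval -0.14 to 0.19) and Ifnar2 (0.25, 0.05 to 0.46) and the kinases Jak1 (0.13, 0.03 to 0.22) and Tyk2 (0.12, -0.07 to 0.32) did not pass the test. Intervals here and below are unadjusted 95% intervals of the log2 change.

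Of 9 feedback inhibitors, 2 were called higher and none lower. Usp18, a protease that removes ISG15 and dampens the type I receptor, stood at 257, 343, 511 and 377 CPM without and 795, 1014, 934 and 706 CPM with IFNα1, without overlap (1.29 ± 0.24, adjusted p = 0.000335). Socs3, an inhibitor of JAK kinases, was near 15 to 17 CPM in every unstimulated library (16.6, 15.5, 15.9 and 15 CPM) and near 28 to 32 CPM in every IFNα1 library (30.4, 29.3, 28.1 and 31.8 CPM; 0.93 ± 0.17, adjusted p = 0.000153). Socs1, the inhibitor best known for ending interferon signals, was high in 1 library only. It stood at 22.5, 9.43, 5.45 and 7.19 CPM with IFNα1 against 6.31, 7.03, 7.72 and 6.74 CPM without, and did not pass the test (0.60 ± 0.29, adjusted p = 0.214).

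In the fit over all libraries, antiviral effectors were called higher nearly throughout. All 15 tested genes of the IFIT and OAS list were called higher (median 1.32, against -0.03 over all genes), as were 25 of 29 other antiviral effectors, with 1 lower (median 0.93). With the 12 and 24 h libraries alone, the counts called higher were 7 of 15 and 16 of 29, against 5.99% of all genes tested. With the compared libraries alone they were 12 of 15 and 15 of 29, against 5.87%. Genes of these families share sequence, and reads of one member may be counted for another.

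Rsad2 encodes viperin, which blocks viral genome synthesis (ENSMUSG00000020641, chromosome 12, 26442753 to 26456452 in GRCm38). Its levels at 2, 6, 12 and 24 h were 411, 323, 968 and 553 CPM without and 3982, 1706, 2227 and 1823 CPM with IFNα1. The IFNα1 library of 2 h was the highest of the 8, and no IFNα1 library reached down to an unstimulated one (2.37 ± 0.35, adjusted p = 2.77e-05; 0.103 with the compared libraries alone). Cmpk2, a nucleotide kinase and the neighbour of Rsad2, went from 256, 278, 658 and 384 to 1788, 1611, 1717 and 1368 CPM (2.26 ± 0.37, adjusted p = 8.76e-05). Mx1, a dynamin-like GTPase that traps viral nucleocapsids, was at 17.7, 26, 81 and 33.8 CPM in unstimulated cells and 245, 252, 227 and 171 CPM with IFNα1 (2.94 ± 0.48, adjusted p = 8.22e-05). Its IFNα1 values lay within 171 to 252 CPM at all durations, while the unstimulated ones peaked at 12 h. The related Mx2 moved alike in size (2.19 ± 0.37, adjusted p = 0.000103). With the compared libraries alone the adjusted p was 0.0821 for Mx1 and 0.0798 for Mx2.

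Ifit2, which binds viral RNA, was at 210.2, 217, 478 and 270.0 CPM without and 1443, 1888, 1553 and 1196 CPM with IFNα1 (2.53 ± 0.40, adjusted p = 5.17e-05). Ifit1 (1.66), Ifit3 (1.94) and Ifit3b (1.99) rose as well. Ifit1bl1, a low-expressed paralog, rose most of the family, from 0.861, 0.864, 0.965 and 0.907 to 10.2, 14, 6.12 and 4.09 CPM (3.30 ± 0.50, adjusted p = 2.4e-05). The oligoadenylate synthases, which make a messenger in response to double-stranded RNA, changed less: Oas1a by 0.96, Oas2 by 1.20, Oas3 by 0.72 and Oasl2 by 0.86. The adjusted p of Oas3 was 0.0644 without 6 h. With the compared libraries alone it was 0.131 for Ifit1, 0.059 for Ifit3 and 0.0772 for Ifit3b.

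Phf11b, a nuclear protein of little-known role, had one of the largest changes (3.27 ± 0.51, adjusted p = 3.02e-05), from 0.431, 0.74, 1.13 and 0.648 to 2.34, 7.5, 9.44 and 8.67 CPM. Smaller increases were called for Daxx, a chromatin factor (1.59), Samhd1, a dNTP hydrolase (1.41), Eif2ak2, the kinase PKR (0.76), Adar, an RNA editor (0.52), and Zc3hav1, the antiviral protein ZAP (0.54). The calls of Daxx (0.0651), Eif2ak2 (0.163) and Zc3hav1 (0.0765) ended with the compared libraries alone, at the adjusted p given. The 3 tested members of the IFITM family, which block viral entry, did not pass the test. Ifitm3, the most abundant, stood at 1161, 1140.3, 1117 and 1289.5 CPM without and 1377, 1279.7, 1273 and 1275 CPM with IFNα1 (0.14, interval -0.00 to 0.29). Ifi27 was the exception in direction. It was called lower, with 46.5, 39.6, 23.6 and 38.6 CPM without and 41.8, 29, 12.9 and 13.8 CPM with IFNα1 (-0.68 ± 0.15, adjusted p = 0.00228). The gap was small at 2 h and widest at 24 h, and the adjusted p was 0.0575 without 12 h.

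Of 15 tested RNA and DNA sensors, 13 were called higher and none lower (median 1.16). With the compared libraries alone 11 of 15 were called higher, against 5.87% of all genes tested. Tlr3, the endosomal receptor for double-stranded RNA, rose from 49.2, 59.7, 121 and 68.7 to 253, 346, 288 and 211 CPM (2.02 ± 0.32, adjusted p = 5.74e-05). Ifih1, the sensor MDA5, rose from 229, 197, 299.7 and 217 to 559, 562, 509 and 438 CPM (1.16 ± 0.21, adjusted p = 0.000175), and Ddx58, the sensor RIG-I, by 0.60. In both genes the groups did not overlap. Ifi205, a member of the DNA-binding p200 family, changed most in this list, from 4.31, 8.02, 17.2 and 8.81 to 57.7, 88.6, 67 and 61.7 CPM (3.02 ± 0.38, adjusted p = 3.15e-06). The adaptors of these sensors behaved differently from one another. Myd88 was called higher (1.12 ± 0.19, adjusted p = 0.000111; 0.143 with the compared libraries alone), whereas Mavs (0.06, interval -0.06 to 0.18) and Tmem173, the adaptor STING (0.33, 0.04 to 0.62), did not pass.

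The ISG15 pathway attaches a ubiquitin-like protein to targets. Isg15 itself was abundant without stimulation, at 351, 356, 559 and 426 CPM, and stood at 671, 782, 884 and 764 CPM with IFNα1 (0.90 ± 0.17, adjusted p = 0.000338). Its activating enzyme Uba7 (1.71), conjugating enzyme Ube2l6 (1.04) and mouse ligase Herc6 (1.94) were called higher, as was Usp18, so that 5 of 6 tested genes rose (3 with the 12 and 24 h libraries alone, against 5.99% of all genes tested). The sixth, Ubd, had 1 count over the 4 unstimulated libraries and 0 over the 4 with IFNα1.

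Of 10 tested interferon regulatory factors and transactivators, 7 were called higher and none lower, and with the compared libraries alone 4 of 9 were. In that setting 5.87% of all genes tested were called higher. Irf1, a transcription factor induced early by interferons, stood at 26.4, 28.5, 52.7 and 38 CPM without and 254, 113, 108 and 91.2 CPM with IFNα1 (1.94 ± 0.30, adjusted p = 3.19e-05; 0.149 with the compared libraries alone). The 2 h library was the highest by far, and all 4 lay above the unstimulated ones. Irf7, the amplifier of type I interferon production, was highest at 24 h instead, at 217, 212, 485 and 267 CPM without and 398, 622, 843 and 909.9 CPM with IFNα1, and its groups overlapped (1.25 ± 0.24, adjusted p = 0.000508). Irf5 was at 20.9, 17.8, 19 and 20.1 CPM with IFNα1 against 2.01, 2.96, 6.59 and 3.76 CPM (2.54 ± 0.47, adjusted p = 0.000282). Nlrc5, the transactivator of MHC class I, rose from 55.7, 69.7, 142 and 84.2 to 199.7, 223, 207 and 168 CPM (1.27 ± 0.26, adjusted p = 0.000847; 0.0977 with the compared libraries alone). Batf2 passed narrowly at low counts (2.31 ± 0.76, adjusted p = 0.0494), and its adjusted p was 0.249 without 6 h, 0.216 without 12 h and 0.145 without 24 h. Irf8 did not pass (0.10, interval -1.02 to 1.21). Ciita, the MHC class II transactivator, had 2 counts without and 0 with IFNα1 over 4 libraries each.

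Interferon-inducible GTPases, which attack pathogen vacuoles, held some of the largest changes: 17 of 18 tested were called higher and none lower (median 1.79). Gbp2 stood at 82.5, 120.0, 195 and 110.1 CPM without and 634, 971, 542 and 406 CPM with IFNα1, with the IFNα1 value highest at 6 h (2.44 ± 0.35, adjusted p = 1.72e-05). Gbp5, which promotes inflammasome assembly, rose from 12.9, 19.9, 38.1 and 22.5 to 122, 165, 132 and 110.2 CPM (2.65 ± 0.34, adjusted p = 5.25e-06). Gbp10 had the largest named change of all but rested on few counts, 5 without and 82 with IFNα1 (3.80 ± 0.68, adjusted p = 0.000151). Among the immunity-related GTPases, Irgm1 changed least (1.08 ± 0.21, adjusted p = 0.00044) and Tgtp1 most, from 8.61, 14.7, 29.6 and 10.8 to 72, 95.4, 87 and 82.3 CPM (2.51 ± 0.34, adjusted p = 7.09e-06). Tgtp1 and Tgtp2 (1.76) are near-identical copies, so their separate values are uncertain. The adjusted p of Gbp4 was 0.0881 without 6 h, and that of Gbp11 0.16 without 6 h and 0.075 without 24 h. With the compared libraries alone, 11 of 16 tested were called higher, against 5.87% of all genes tested, and the adjusted p was 0.0586 for Gbp2 and 0.129 for Irgm1.

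**Figure D1:**
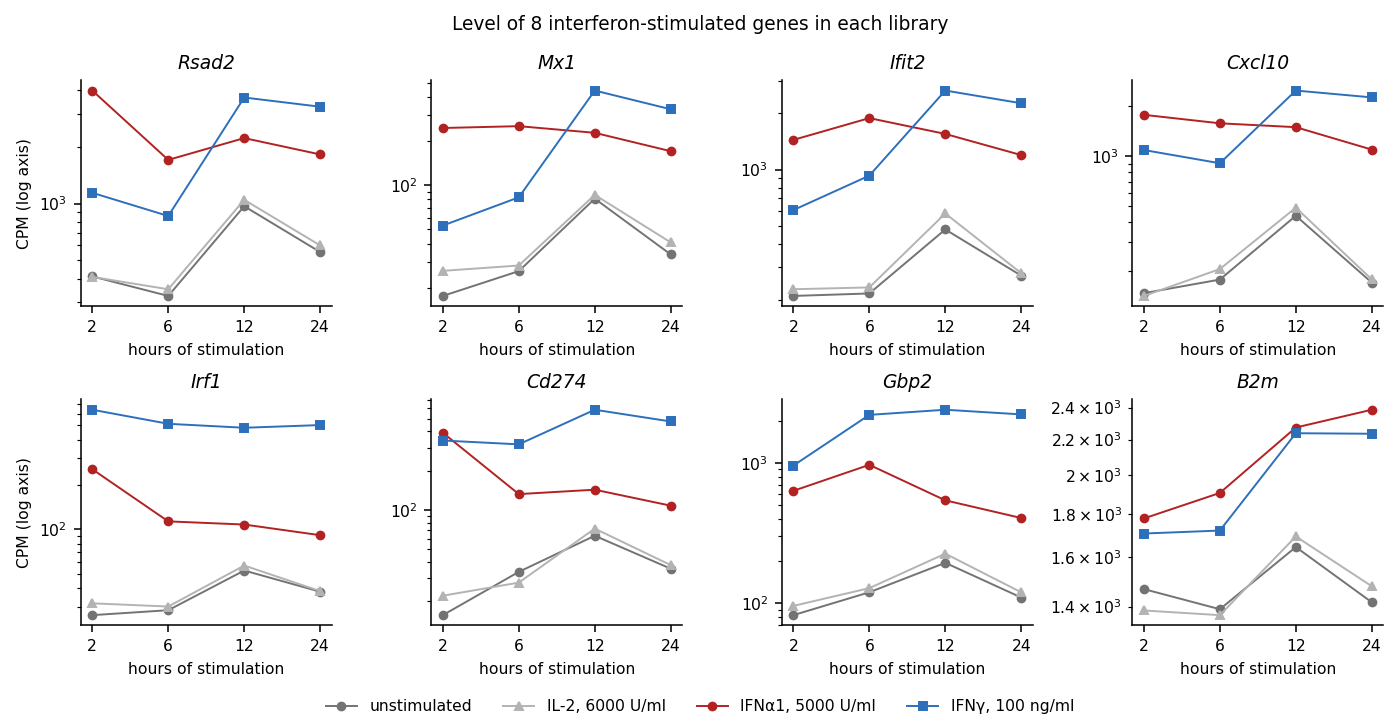
CPM (log axis) of Rsad2, Mx1, Ifit2, Cxcl10, Irf1, Cd274, Gbp2 and B2m by hours of stimulation, with 1 point for each library of 4 groups. The red IFNα1 points lie above the grey unstimulated and IL-2 points at every duration, and the unstimulated and IL-2 lines are highest at 12 h in all 8 genes.

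Genes of MHC class I antigen presentation rose as a group, 14 of 18 tested, with none lower (median 1.38). At 2 h the list's median log2 ratio was 0.50, and at 6, 12 and 24 h it was 1.61, 0.84 and 1.59. The IFIT and OAS families started at 1.60 at 2 h. B2m, the light chain, was already at 1468, 1389.9, 1645 and 1416 CPM without stimulation and reached 1777, 1904, 2273 and 2386 CPM with IFNα1 (0.49 ± 0.09, adjusted p = 0.000286). The heavy chain H2-K1 stood at 501, 454, 785 and 507 CPM without and 555, 827, 1316 and 1691 CPM with IFNα1. Its groups overlapped, the 24 h library with IFNα1 was the highest, and the call (0.86 ± 0.28, adjusted p = 0.0421) ended when a duration was left out, with an adjusted p of 0.211 without 6 h, 0.239 without 12 h and 0.0696 without 24 h. H2-D1 followed the same course (0.78 ± 0.23, adjusted p = 0.0216; 0.15 without 6 h and 0.157 without 12 h). With the compared libraries alone the adjusted p was 0.235 for H2-K1 and 0.18 for H2-D1. Heavy chain genes are close paralogs, and their separate values are uncertain.

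The peptide supply rose more evenly. Tap1, a subunit of the peptide transporter, stood at 71.5, 94.8, 179 and 111 CPM without and 262, 311, 295 and 274 CPM with IFNα1 (1.41 ± 0.23, adjusted p = 7.9e-05). Tap2 (1.42), Tapbp, which is tapasin (1.26), Tapbpl (1.40) and the trimming peptidase Erap1 (0.87) were called as well. All 5 immunoproteasome and PA28 genes were called higher (median 1.51). Psmb9, a catalytic subunit, went from 7.89, 6.66, 16.1 and 9.33 to 18.4, 32.7, 43.9 and 38.3 CPM (1.77 ± 0.30, adjusted p = 0.000105), and Psmb10, another, from 25.5, 33.3, 47.9 and 27.7 to 72.7, 168, 105 and 85.6 CPM (1.69 ± 0.26, adjusted p = 3.02e-05). Psmb9 and Tap1 overlap at their ends on chromosome 17, so reads there may be shared. The general chaperones of the list, Calr (0.00, interval -0.18 to 0.19), Canx (-0.01, -0.09 to 0.08) and Pdia3 (0.04, -0.08 to 0.15), did not pass, and their intervals are narrow. With the compared libraries alone 9 of 17 tested genes of the list were called, without Tap2 (adjusted p 0.091), and with the 2 and 6 h libraries alone 7 of 18. Over all genes tested, 5.87% and 3.89% were called higher in these settings.

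The PARP, TRIM and Schlafen families rose nearly as a whole. Of 7 PARP genes with Dtx3l, 6 were called higher (median 1.12). Parp14, a mono-ADP-ribosyltransferase, rose from 191, 267, 511 and 296 to 1116, 857, 791 and 622 CPM (1.55 ± 0.28, adjusted p = 0.000177; 0.167 with the compared libraries alone), and Tiparp, which responds to xenobiotics, did not pass (0.15, interval -0.18 to 0.49). All 11 TRIM genes, of a family with antiviral roles that includes ubiquitin ligases, were called higher (median 0.88). Trim21, a cytosolic antibody receptor, was highest at 2 h, with 243, 110.5, 105 and 93.6 CPM against 30.1, 48.5, 69.1 and 45.6 CPM (1.63 ± 0.30, adjusted p = 0.000255; 0.243 with the compared libraries alone). With the 12 and 24 h libraries alone, 4 of these 11 genes were called higher, against 5.99% of all genes tested. With the compared libraries alone 7 of the 11 were, against 5.87%. Of 7 Schlafen genes, 6 were called higher (median 2.18). Slfn2, which keeps T cells quiescent, rose from 18.2, 26.7, 66.6 and 30.7 to 72.3, 119, 199.5 and 171 CPM with a small error (2.05 ± 0.20, adjusted p = 8.02e-08). Slfn4 rose further (3.49 ± 0.64, adjusted p = 0.000231) from a low level (0.431, 0.494, 2.73 and 0.518 to 1.61, 5.11, 21.3 and 15.1 CPM), with the 2 h IFNα1 library inside the unstimulated range.

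**Figure D2:**
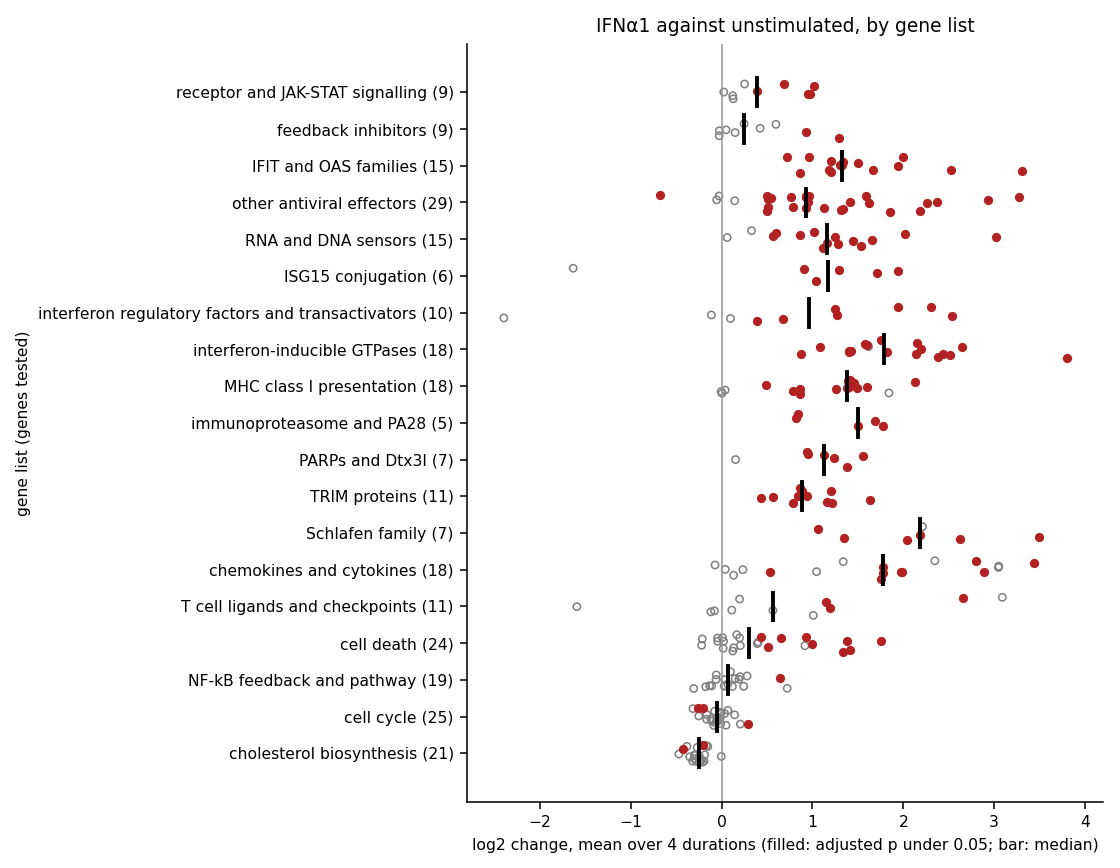
Log2 change with IFNα1 against unstimulated (x axis, mean over 4 durations) of each tested gene in 19 lists (y axis), filled where the adjusted p was under 0.05, with a bar at the list's median. Nearly all filled points of the antiviral, GTPase and antigen presentation lists lie to the right of 0, while the NF-κB, cell cycle and cholesterol lists lie close to 0.

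Of 18 tested chemokines and cytokines, 9 were called higher and none lower. Cxcl10, a chemokine that attracts CXCR3-bearing T cells, stood at 148, 179, 435 and 171 CPM without and 1773, 1576, 1493 and 1092 CPM with IFNα1 (2.88 ± 0.41, adjusted p = 1.56e-05, chromosome 5, 92346638 to 92348889 in GRCm38). All 4 IFNα1 libraries were above 1000 CPM and all unstimulated ones below 500. Cxcl9, a second CXCR3 ligand, had 58 counts over the 4 IFNα1 libraries against 6 over the unstimulated ones, and did not pass the test (3.05 ± 1.52, adjusted p = 0.237). For the third, Cxcl11, the counts were 13 and 1. Tnfsf10, the death ligand TRAIL, showed one of the largest changes of all genes, from 1.72, 3.58, 7.4 and 3.76 to 71.7, 30.4, 24.6 and 17.8 CPM (3.44 ± 0.59, adjusted p = 0.000108; 0.0933 with the compared libraries alone). Its IFNα1 level was highest at 2 h and lowest at 24 h.

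The inflammatory cytokine Il6 rose from 2.15, 1.6, 3.05 and 1.17 to 15.5, 13.1, 10.5 and 11.6 CPM (2.80 ± 0.67, adjusted p = 0.00506), with an adjusted p of 0.0552 without 6 h. Ccl2, a monocyte chemokine, stood at 37.5, 15.9, 30.7 and 22.7 CPM without and 67.2, 66.3, 114 and 105 CPM with IFNα1 (1.78 ± 0.51, adjusted p = 0.0211), with an adjusted p of 0.132 without 6 h, 0.16 without 12 h and 0.0967 without 24 h. Il18bp, the soluble inhibitor of IL-18, went from 2.15, 2.47, 4.98 and 2.98 to 7.01, 12.4, 16 and 12.4 CPM (1.98 ± 0.44, adjusted p = 0.00195), and its adjusted p was 0.0631 without 6 h. The T and NK cell growth factor Il15 was called at low counts (1.99 ± 0.55, adjusted p = 0.0138; 0.0578 without 6 h and 0.0769 without 12 h). Ccl5 did not pass (1.04, interval -0.28 to 2.37), although its IFNα1 libraries of 12 and 24 h, at 54.8 and 81.4 CPM, were above every unstimulated one. Without the 6 h libraries, 2 of the 18 genes were called higher, against 3.88% of all genes tested.

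Among 11 tested ligands and checkpoints for T cells, 3 were called higher. Cd274, which encodes PD-L1, stood at 15.6, 33.6, 63.5 and 35.5 CPM without and 391, 132, 143 and 108 CPM with IFNα1 (2.65 ± 0.45, adjusted p = 9.82e-05, chromosome 19, 29367455 to 29388095 in GRCm38). The 2 h library stood far above the other 3, and all 4 were above every unstimulated library. With the compared libraries alone its adjusted p was 0.237, at a change of 2.25. Cd47, a signal against phagocytosis, rose from 109.6, 116, 165 and 119 to 258, 338, 294 and 259 CPM (1.19 ± 0.15, adjusted p = 3.15e-06). Lgals9, the TIM-3 ligand galectin-9, rose from 101, 112, 163 and 103 to 212, 329, 279 and 226 CPM (1.15 ± 0.23, adjusted p = 0.000778), with an adjusted p of 0.0597 without 6 h. Ido1, which degrades tryptophan, had 4 counts with and 0 without IFNα1 over 4 libraries each, and Icam1, an adhesion molecule, 1 and 4. Pvr, the ligand of CD226 and TIGIT, did not pass (-0.12, interval -0.25 to 0.01).

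Of 24 cell death genes, 9 were called higher and none lower (median 0.30). They include 3 inflammatory caspases and 2 executioners of lytic death. Casp4 rose from 4.88, 3.7, 6.27 and 4.02 to 12.7, 15.3, 19.3 and 16 CPM (1.76 ± 0.33, adjusted p = 0.000282), Casp1 from 8.32, 6.17, 6.43 and 8.81 to 15, 24.3, 20.2 and 18.6 CPM (1.38 ± 0.26, adjusted p = 0.000237) and Casp12 by 1.33. Gsdmd, the pore protein that inflammatory caspases cleave, rose from 4.88, 6.91, 6.59 and 5.57 to 8.17, 17.9, 18.9 and 20 CPM (1.41 ± 0.32, adjusted p = 0.00269), with an adjusted p of 0.0511 without 6 h and 0.0658 without 12 h. Mlkl, the executioner of necroptosis, rose by 0.99, and Xaf1, an antagonist of XIAP, by 0.93. Casp8 (0.65) and the BH3 proteins Bcl2l11 (0.51) and Bid (0.43) had smaller calls, and those of Bcl2l11 (0.091 without 2 h and 0.0668 without 6 h) and Bid (0.0854 without 2 h and 0.111 without 6 h) ended when a duration was left out, and 0.0524 and 0.0654 were their adjusted p with the compared libraries alone. Bax (-0.17 to 0.08), Mcl1 (-0.15 to 0.06) and Bcl2l1 (-0.15 to 0.19) did not pass, with the intervals given.

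The NF-κB, cell cycle and cholesterol lists had medians close to that of all genes or slightly below it. In the NF-κB list 1 of 19 genes was called, Nfkbiz, a nuclear IκB protein (0.64 ± 0.14, adjusted p = 0.00109; median of the list 0.07). In the cell cycle list 1 of 25 was called higher and 2 lower (median -0.05). The 2 were Ccna2 (-0.20 ± 0.07, adjusted p = 0.0486) and Ccnb1 (-0.26 ± 0.08, adjusted p = 0.0312), cyclins of S phase and mitosis, and both calls ended when the 6, 12 or 24 h libraries were left out (Ccna2 at adjusted p 0.179 without 6 h, 0.466 without 12 h and 0.372 without 24 h, Ccnb1 at 0.34 without 6 h, 0.194 without 12 h and 0.223 without 24 h). The 1 was Mcm6, a replication helicase subunit (0.29 ± 0.08, adjusted p = 0.0102), with an adjusted p of 0.165 without 6 h. In the cholesterol synthesis list 2 of 21 were called lower, among them Dhcr7, a reductase of the last steps (-0.20 ± 0.07, adjusted p = 0.0487), and none higher (median -0.25). Leaving out any duration ended the call of Dhcr7, at adjusted p 0.0531 without 2 h, 0.2 without 6 h, 0.295 without 12 h and 0.27 without 24 h. The list's median log2 ratio was -0.11 at 2 h, -0.06 at 6 h, -0.41 at 12 h and -0.49 at 24 h. With the 12 and 24 h libraries alone, 14 of the 21 were called lower, against 3.47% of all genes tested (424 of 12228).

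Of the 15 largest increases by the naming rule, most belong to the families above, and 4 do not. Ccrl2, an atypical receptor for chemerin, rose from 0.718, 1.85, 1.29 and 1.43 to 10.7, 12.5, 13.3 and 8.43 CPM (3.05 ± 0.47, adjusted p = 3.02e-05), with no overlap. Mpeg1, the pore protein perforin-2, rose from 8.04, 10.5, 33.4 and 8.55 to 32.8, 105, 139 and 122 CPM (2.86 ± 0.49, adjusted p = 0.000108), with only the 2 h IFNα1 library inside the unstimulated range. Lmo2, a transcriptional adaptor of blood cell development, stood at 3.36, 8.4, 1.73 and 1.24 CPM against 0.431, 0.494, 0.965 and 0.13 CPM (2.88 ± 0.57, adjusted p = 0.000441), with an adjusted p of 0.0785 without 6 h. Misp, a protein of the mitotic spindle, had 46 counts with and 6 without IFNα1 (2.82 ± 0.87, adjusted p = 0.0308), and its adjusted p was 0.0753 without 2 h, 0.155 without 6 h and 0.129 without 24 h. Mpeg1 is known from macrophages and Lmo2 from blood and endothelial cells. Among the markers of these cells, Cd14 had 3307 counts over the 8 libraries, Cd68 184 and Cdh5 310, while Adgre1, Lyz2, Tyrobp and Cldn5 were at 0. Their part in these changes was not tested.

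Decreases were smaller, and 3 of the 377 reached 2-fold. Foxq1, a forkhead transcription factor, had 15 counts with and 39 without IFNα1 (-1.43 ± 0.43, adjusted p = 0.027; 0.0901 without 6 h, 0.128 without 12 h and 0.127 without 24 h). F2rl1, the protease receptor PAR2, stood at 8.04, 7.9, 6.11 and 3.76 CPM without and 5.69, 4.32, 2 and 1.73 CPM with IFNα1 (-0.97 ± 0.27, adjusted p = 0.0129; 0.107 without 6 h and 0.175 without 12 h). Flrt3, an adhesion protein, was the most abundant of the 10 named decreases, at 105, 58.7, 47.1 and 45.3 CPM without and 64.7, 30.3, 29.4 and 35.2 CPM with IFNα1 (-0.68 ± 0.20, adjusted p = 0.022; 0.255 without 6 h and 0.184 without 12 h). Its level was lower with IFNα1 at every duration, though the groups overlapped. Pcolce2, an enhancer of procollagen processing, stood at 22.5, 25, 19.1 and 18 and 21.2, 18.4, 7.85 and 7.56 CPM (-0.68 ± 0.16, adjusted p = 0.00288; 0.146 without 12 h). Kcnf1, a potassium channel subunit, changed by -0.79 (0.0505 without 6 h, 0.0676 without 12 h and 0.0731 without 24 h), Rasl11b, a small GTPase, by -0.83 (0.0873 without 6 h, 0.0959 without 12 h and 0.114 without 24 h), Tdrkh by -0.97 (0.328 without 6 h, 0.281 without 12 h and 0.0514 without 24 h), Murc by -0.84 (0.144 without 2 h, 0.187 without 6 h and 0.143 without 12 h) and Lurap1l by -0.68 (0.182 without 2 h, 0.384 without 6 h, 0.0732 without 12 h and 0.0625 without 24 h). Thus each of the 10 decreases, Ifi27 included, lost its call when some duration was left out.

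At single durations there is no test. Genes were taken that reached 5 CPM with or without IFNα1. Of these, 2.2% were at least 2-fold higher with IFNα1 at 2 h (220 of 9992), 2.67% at 6 h (268 of 10051), 1.48% at 12 h (149 of 10064) and 2.2% at 24 h (223 of 10145). At least 2-fold lower were 44, 11, 12 and 28 genes. The 254 genes called at least 2-fold higher had median log2 ratios of 1.55, 1.76, 1.06 and 1.47 at 2, 6, 12 and 24 h. The ratio was smallest at 12 h in 158 of them and largest there in 7.

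The low ratio at 12 h went with a high level in the unstimulated library. In 200 of the 254 genes the unstimulated level was highest at 12 h, and the level with IL-2, which has its own 4 libraries, was highest at 12 h in 198. With IFNα1 the highest level fell at 2 h in 47 genes, at 6 h in 76, at 12 h in 76 and at 24 h in 55. Summed over the 15 IFIT and OAS genes, unstimulated cells had 1614, 1951, 3797 and 2466 CPM at 2, 6, 12 and 24 h, IL-2 cells 1726, 2198, 4032 and 2588 CPM, and IFNα1 cells 6927, 7090.4, 7251 and 6263 CPM. The sum thus varied more over the unstimulated libraries than over those with IFNα1. Rsad2 with IL-2 stood at 408, 351, 1047 and 599 CPM, close to its unstimulated levels, and Mx1 with IL-2 at 26.2, 28.4, 86 and 40.8 CPM. With IL-2 as the reference, 713 genes were called higher and 380 lower with IFNα1.

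A second model gave each stimulus a slope on the log2 of the hours, so that a value is the change of the IFNα1 effect for each doubling of duration. Of 12203 genes, 46 were called with a rising effect (0.377%) and 55 with a falling one (0.451%). Without the 24 h libraries none of 12139 genes tested was called by edgeR, and 1037 of them had an unadjusted p under 0.05. Without the 2 h libraries 4 rising and 11 falling effects were called, and without 12 h 5 and 5, whereas without 6 h there were 137 and 122. Of the 22 called slopes of listed or rule-named genes, 20 lost their call without 2 h, 20 without 12 h, 22 without 24 h and 1 without 6 h. In DESeq2 13 of these slopes lost their call. Ly6c1, a GPI-anchored surface protein induced by interferons, had the steepest rise, 1.13 ± 0.17, adjusted p = 0.001, and stood at 3.73, 4.07, 3.22 and 2.2 CPM without and 3.36, 9.65, 20.9 and 32.7 CPM with IFNα1. Its log2 ratios were -0.14, 1.19, 2.60 and 3.74, and its adjusted p was 0.0691 without 2 h and 0.146 without 24 h. Txnip, an inhibitor of thioredoxin, had a slope of 0.37 ± 0.09, adjusted p = 0.0307, with 12.1, 14.1, 22.2 and 21.5 CPM without and 15.3, 21.5, 49.3 and 63.7 CPM with IFNα1, and its paralog Arrdc4 one of 0.40 ± 0.08, adjusted p = 0.00797 (18.7, 17.4, 21.2 and 19.2 and 18, 18.5, 38.6 and 45.5 CPM). Both suppress glucose uptake and respond to glucose metabolites. Tmem119 changed sign, with log2 ratios of -0.74, -0.40, 0.70 and 0.91 (0.50 ± 0.09, adjusted p = 0.00596). The adjusted p of Txnip was 0.0842 without 2 h, 0.157 without 12 h and 0.467 without 24 h. That of Arrdc4 was 0.0665 without 2 h, 0.061 without 12 h and 0.351 without 24 h, and that of Tmem119 0.114 without 2 h, 0.061 without 12 h and 0.189 without 24 h.

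Among falling effects, Mb21d1, the DNA sensor cGAS, had log2 ratios of 1.73, 0.71, 0.36 and 0.42 (-0.39 ± 0.09, adjusted p = 0.0407; 0.803 without 2 h, 0.255 without 12 h and 0.146 without 24 h). Zbtb5, a zinc finger protein, and Fam208b had their largest effect at 2 h, with log2 ratios of 1.81, 0.77, 0.08 and 0.10 and 1.41, 0.32, -0.04 and -0.13 (-0.54 ± 0.10, adjusted p = 0.00416 and -0.45 ± 0.08, adjusted p = 0.0105). The adjusted p of Zbtb5 was 0.569 without 2 h, 0.061 without 12 h and 0.0778 without 24 h, and that of Fam208b 0.371 without 2 h, 0.175 without 12 h and 0.189 without 24 h. Pdk1, a kinase that restrains pyruvate dehydrogenase, showed ratios near 0 at 2 and 6 h and was lower later, at 0.05, -0.03, -0.92 and -1.25 (-0.39 ± 0.07, adjusted p = 0.00275; 0.061 without 12 h and 0.327 without 24 h). The mitochondrial genes Pccb (-0.48; adjusted p 0.0583 without 2 h, 0.061 without 12 h and 0.613 without 24 h) and Coq7 (-0.41; 0.422 without 2 h, 0.186 without 12 h and 0.315 without 24 h) were also called with a falling effect. The share of counts from mitochondrial transcripts was higher with IFNα1 at 2 and 12 h and lower at 6 and 24 h. It was 1.44% with and 1.17% without IFNα1 at 2 h, 1.05% and 1.20% at 6 h, 0.831% and 0.786% at 12 h, and 0.734% and 0.964% at 24 h. Its part in these slopes was not tested. Of the 101 genes with a called slope, 32 were also called against unstimulated, 20 higher and 12 lower. In the lists, the slope was called for Mb21d1, Zc3hav1 and Ifi27 only.

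**Figure D3:**
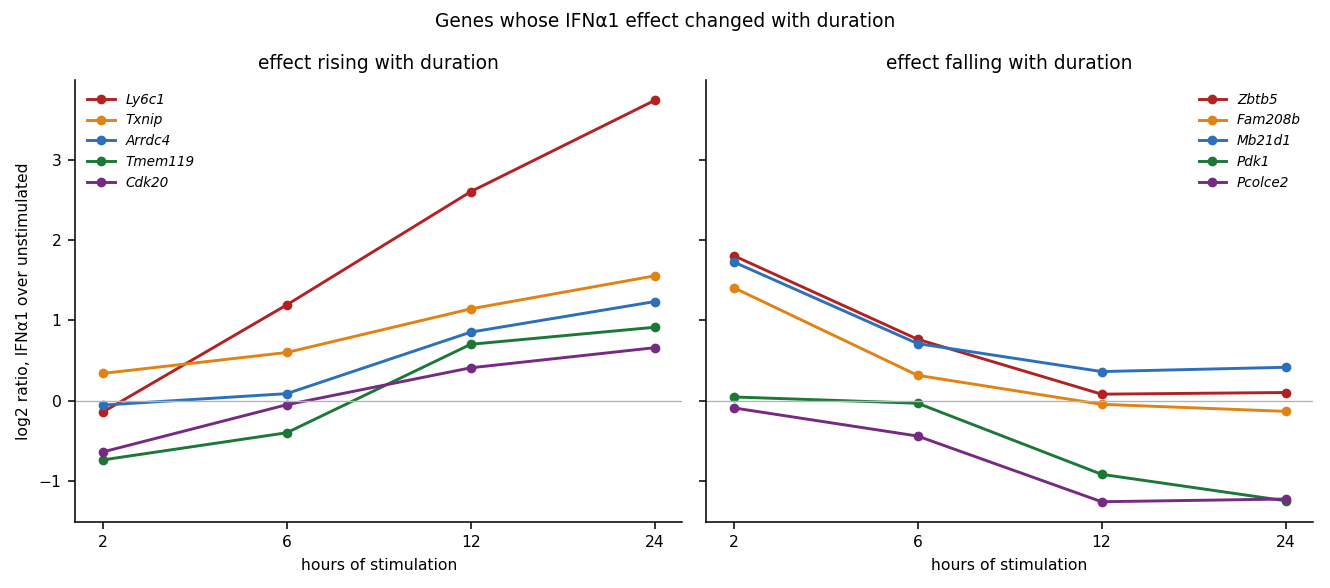
Log2 ratio of IFNα1 over unstimulated (y axis) by hours of stimulation (x axis) for 5 genes with a rising effect (left) and 5 with a falling effect (right), 1 point for each duration. Ly6c1 goes from -0.14 to 3.74, while Zbtb5 and Fam208b drop to near 0 by 12 h and Pdk1 and Pcolce2 lie below -0.9 at 12 and 24 h.

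Promoters of the responding genes were read from RefSeq windows of GRCm38.p6 that run from 250 bases before to 50 after a gene's start. An ISRE was searched as GAAANNGAAA and a GAS as TTCNNNGAA, on both strands. Of all 32851 windows, 3.44% hold the ISRE letters and 8.30% the GAS letters. Of the 12203 tested genes, 9116 matched a window by symbol, and 3.97% of these had an ISRE match in at least 1 window. Among the genes called higher by at least 2-fold, 173 of 254 matched and 30.6% of them had an ISRE match. Among those called higher by less it was 11.3% of 372, and among those called lower 1.65% of 303. For the GAS letters the shares were 13.9%, 12.1% and 8.91%, against 8.34% of all tested genes. By family, the ISRE letters were found in 9 of 12 IFIT and OAS genes, 9 of 10 GTPases and 8 of 10 TRIM genes, but in 4 of 15 MHC class I genes and 1 of 12 chemokines and cytokines. A match is a description of the letters and not a measured binding site.

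The stretches around the ISRE letters of the 6 largest called increases that have them are shown first, to let the letters be seen in place. Isg15 was added after its window was seen, for its run of 3 overlapping matches. Capitals mark GAAANNGAAA or its reverse complement, and each stretch reads 5′ to 3′ on the gene's strand.
Ifit1bl1 (chr19:34602041-34602094, minus strand): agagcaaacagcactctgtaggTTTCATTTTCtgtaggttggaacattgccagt
Ifit1bl1 (chr19:34599419-34599472, minus strand): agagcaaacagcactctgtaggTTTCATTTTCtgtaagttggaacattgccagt
Phf11b (chr14:59341349-59341402, minus strand): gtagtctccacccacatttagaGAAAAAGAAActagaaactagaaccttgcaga
Ifi205 (chr1:174031706-174031911, minus strand): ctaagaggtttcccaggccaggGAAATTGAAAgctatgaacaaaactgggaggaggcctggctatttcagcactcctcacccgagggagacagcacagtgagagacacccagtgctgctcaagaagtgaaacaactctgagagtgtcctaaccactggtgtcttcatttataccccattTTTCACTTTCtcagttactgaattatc
Cxcl10 (chr5:92349071-92349124, minus strand): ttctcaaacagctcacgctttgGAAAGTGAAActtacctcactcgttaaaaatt
Gbp5 (chr3:142496747-142496800, plus strand): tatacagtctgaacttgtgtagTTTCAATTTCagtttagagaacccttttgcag
Ifi208 (chr1:173673585-173673638, plus strand): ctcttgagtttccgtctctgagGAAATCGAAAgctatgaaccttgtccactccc
Isg15 (chr4:156200853-156200918, minus strand): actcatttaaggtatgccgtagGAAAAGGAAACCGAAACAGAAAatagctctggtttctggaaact
The letters begin between 213 bases (Cxcl10) and 23 bases (the second Ifit1bl1 window) before the start site, and Ifi205 has a second match after it. Isg15, picked for its matches, changed by 0.90, and the other genes shown were picked for their large changes. Slfn4, Tnfsf10, Ifi209, Trim30c, Ccrl2, Mpeg1 and Il6 have windows without these letters, and Gbp10, Mx1, Lmo2 and Misp matched no window.

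IFNα1 was last compared with IFNγ at 100 ng/ml, over the same durations. The units of the doses differ, so a difference between the agents cannot be told apart from one of dose. Of 12203 genes, 807 were higher with IFNα1 (6.61%) and 1157 lower (9.48%). Leaving out 12 h gave 111 and 207, and the 12 and 24 h libraries alone gave 1527 and 1574. Of the called differences of listed or rule-named genes, 27 kept and 55 lost their call without 12 h. With the IFNα1 and IFNγ libraries alone 38 kept and 33 lost it, and with the 2 and 6 h libraries alone 15 and 66. Of the 254 genes at least 2-fold higher with IFNα1 than unstimulated, 37 were lower than with IFNγ, 10 were higher and 207 were not called. These comparisons share the IFNα1 libraries.

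Most GTPases were lower with IFNα1 than with IFNγ: 14 of 18 were called lower and none higher (median difference -1.13). The count was 6 without the 12 h libraries, 9 without 6 h, 10 without 24 h and 15 without 2 h, and 2 with the 2 and 6 h libraries alone. Over all genes tested, 1.69% were called lower without 12 h, 4.68% without 6 h, 4.25% without 24 h and 12.5% without 2 h. With the 2 and 6 h libraries alone the share was 0.865%. Gbp2 stood at 959, 2204, 2397 and 2221 CPM with IFNγ, against the 634, 971, 542 and 406 CPM with IFNα1 given above (-1.50 ± 0.33, adjusted p = 0.00192; 0.0918 without 12 h). Igtp stood at 803, 1133, 1019 and 937 CPM with IFNγ and 381, 355, 335 and 246 CPM with IFNα1, with no overlap (-1.54 ± 0.27, adjusted p = 0.000208). Irf1 was 638, 513, 482 and 503 CPM with IFNγ, above every IFNα1 library (-1.95 ± 0.27, adjusted p = 7.93e-06). Also lower with IFNα1 were Irf8 (-2.98 ± 0.47, adjusted p = 4.55e-05), Nlrc5 (-0.95 ± 0.25, adjusted p = 0.00849; 0.11 without 12 h and 0.102 without 24 h) and Socs3 (-1.16 ± 0.15, adjusted p = 9.94e-07). Several genes had far fewer counts with IFNα1 over the 4 libraries. Cxcl9 had 58 counts with IFNα1 and 1890 with IFNγ, Ciita 0 and 48, Icam1 1 and 49, and Ido1 4 and 32. Unstimulated, Cxcl9 had 6 counts, Ciita 2, Icam1 4 and Ido1 0. These genes passed the low-count filter through other groups, for Cxcl9 the IFNγ group included (736, 530, 369 and 255 counts). Only their counts are therefore given here. Batf2 stood at 11.2, 38.8, 74.7 and 105 CPM with IFNγ and 2.34, 2.73, 2.13 and 1.86 CPM with IFNα1 (-4.56 ± 0.35, adjusted p = 1.42e-11).

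In the IFIT and OAS families 2 of 15 were called higher than with IFNγ and none lower (0 to 3 higher with a duration left out), and the sign of the difference changed between early and late durations. Their median difference, IFNα1 minus IFNγ, was 0.90 at 2 h, 0.96 at 6 h, -0.16 at 12 h and -0.09 at 24 h. Summed, they held 3345, 3936, 9250.3 and 8536 CPM with IFNγ, below the IFNα1 sum at 2 and 6 h and above it at 12 and 24 h. Mx1 followed this course, with 53.2, 82.8, 441 and 329 CPM with IFNγ and 245, 252, 227 and 171 CPM with IFNα1 (0.54 ± 0.43, adjusted p = 0.429), and so did Tnfsf10, with 15.7, 20.4, 57.5 and 52.3 and 71.7, 30.4, 24.6 and 17.8 CPM. The mean difference of Tnfsf10 was 0.28 (adjusted p = 0.717), and with the 12 and 24 h libraries alone it was -1.39 (adjusted p = 0.00526). The change of this difference over the durations was not tested. Cxcl10 differed little on average (-0.06, interval -0.83 to 0.71), as did B2m (0.08, -0.11 to 0.27).

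**Figure D4:**
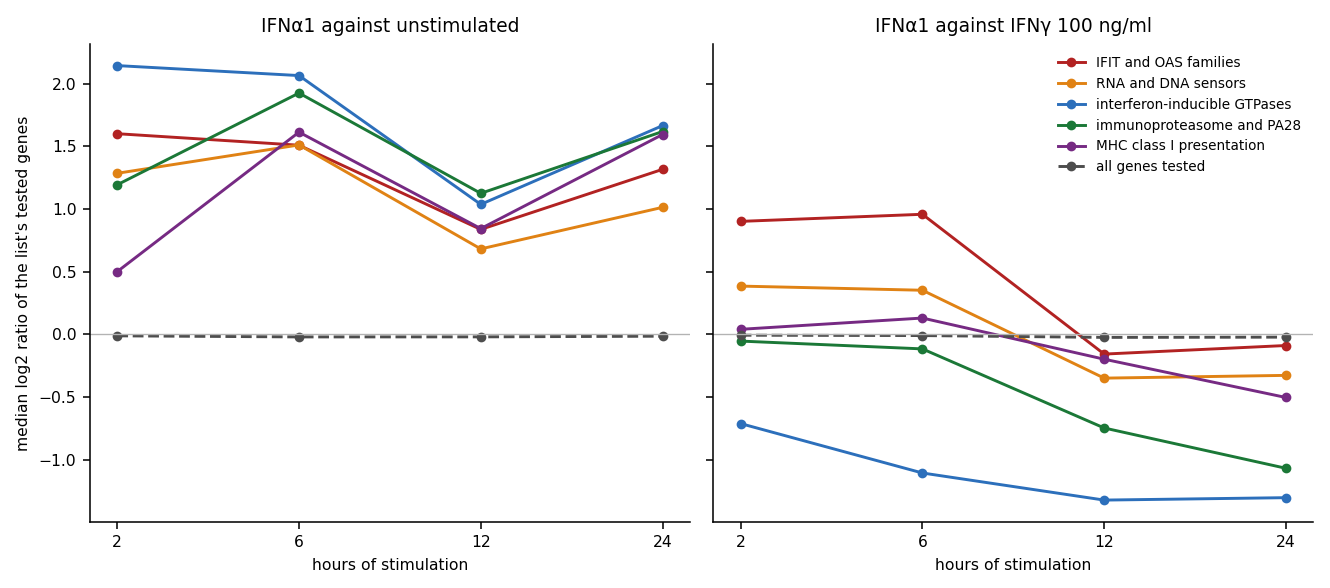
Median log2 ratio of the tested genes of 5 lists and of all genes (y axis) by hours of stimulation (x axis), for IFNα1 against unstimulated (left) and against IFNγ at 100 ng/ml (right). On the left every list dips at 12 h, and MHC class I starts lowest at 0.50. On the right the IFIT and OAS median goes from 0.90 at 2 h to -0.16 at 12 h, and the GTPase median stays below -0.7.

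Cd274 stood at 341, 319, 587 and 477 CPM with IFNγ and 391, 132, 143 and 108 CPM with IFNα1. The IFNα1 library was the higher of the pair at 2 h and the lower at 6, 12 and 24 h (-0.97 ± 0.40, adjusted p = 0.0925). The immunoproteasome moved likewise, with a median difference of -0.05 at 2 h and -1.07 at 24 h, and Psmb9 (-1.07 ± 0.25, adjusted p = 0.0031; 0.137 without 12 h) and Psme2 (-0.63 ± 0.15, adjusted p = 0.00411; 0.181 without 12 h and 0.072 without 24 h) were called lower. Other genes were higher with IFNα1 than with IFNγ. Slco4a1, an anion transporter, stood at 13.6, 23.9, 14.9 and 23.3 CPM with IFNγ, 24.5, 67.5, 67.8 and 50.2 CPM with IFNα1 and 28.3, 42.2, 30.7 and 28.8 CPM unstimulated (1.47 ± 0.21, adjusted p = 8.21e-06). Bmf, a pro-apoptotic BH3 protein, had 4.56, 1.29, 1.7 and 1.45 CPM with IFNγ and 5.55, 3.29, 7.98 and 8.18 CPM with IFNα1 (1.56 ± 0.30, adjusted p = 0.000326). Igfbp5, a binding protein of insulin-like growth factors, stood at 322, 186, 50.7 and 24.2 CPM with IFNγ and 359, 342, 392 and 252 CPM with IFNα1 (1.71 ± 0.48, adjusted p = 0.014; 0.0554 without 6 h and 0.325 without 12 h). Against unstimulated, the IFNα1 change was smaller, 0.32 in Igfbp5 and 0.24 in Bmf. The fibroblast markers Col3a1 (1.14 ± 0.31, adjusted p = 0.0119; 0.0987 without 6 h and 0.202 without 12 h) and Dcn (1.23 ± 0.28, adjusted p = 0.00224; 0.177 without 12 h) and the macrophage marker Cd14 (0.64 ± 0.15, adjusted p = 0.00364; 0.224 without 12 h and 0.109 without 24 h) moved in the same direction. The 8 fibroblast markers summed to 202.7 to 381 CPM with IFNγ, below every IFNα1 library, and to 349 to 524 CPM unstimulated. Their part in these differences was not tested.

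**Figure D5:**
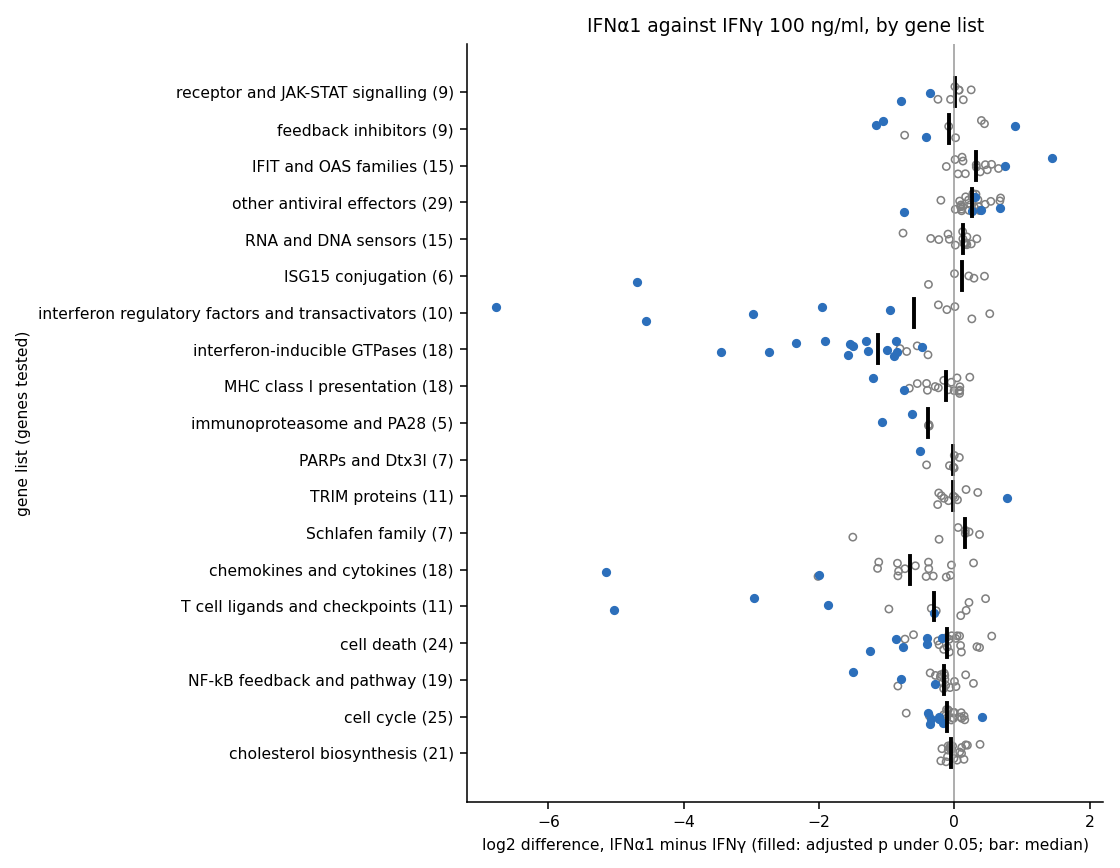
Log2 difference, IFNα1 minus IFNγ at 100 ng/ml (x axis), of each tested gene in 19 lists (y axis), filled where the adjusted p was under 0.05, with a bar at the list's median. The GTPases and regulatory factors reach far below 0, as do single genes of other lists, such as Cxcl9, Icam1 and Ubd. The antiviral lists have medians just above 0.

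The promoter letters were counted along this line as well. Of the 37 genes that rose at least 2-fold with IFNα1 and were lower than with IFNγ, 23 had a promoter window, 47.8% of these had GAS letters and 39.1% ISRE letters. Of the other 217, with 150 windows, 8.67% had GAS and 29.3% ISRE letters. This split was chosen after the values were seen. The GAS stretches of the 4 such genes with the largest difference that have the letters are shown, TTCNNNGAA in capitals, to set them beside the ISRE stretches above.
Irf1 (chr11:53769902-53769954, plus strand): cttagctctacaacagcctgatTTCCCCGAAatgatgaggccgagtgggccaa
Tgtp1 (chr11:48992304-48992356, minus strand): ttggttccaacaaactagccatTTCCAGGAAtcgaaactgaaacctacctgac
Igtp (chr11:58199489-58199541, plus strand): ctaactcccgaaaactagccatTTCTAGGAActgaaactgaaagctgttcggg
Tgtp2 (chr11:49064263-49064315, minus strand): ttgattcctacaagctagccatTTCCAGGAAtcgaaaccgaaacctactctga
In Tgtp1, Igtp and Tgtp2, 3 immunity-related GTPases on chromosome 11, the ISRE letters begin just after the GAS letters, at 77, 34 and 70 bases before the start site. Irf1 has GAS letters and no ISRE letters in its window.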

How the data were processed

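RNA was sequenced from NMM cells in 48 libraries of 12 groups, 4 durations each. The authors deposited counts of reads per gene, not normalized; reads were aligned with HISAT to GRCm38, per the submitters' processing notes. The aligner's version, the counting tool, its strand setting and the annotation release were not given in the sources used here. The 48 libraries held 5612907 to 9663207 counts, which sets the precision of low genes.

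From the counts, edgeR 4.0.16 (R 4.3.3) kept 12203 of 49671 genes (filterByExpr by group, minimum count 10, minimum total 15), scaled with TMM and fitted robust quasi-likelihood models over all 48 libraries with a term for each duration and each group (33 residual degrees of freedom), or also a slope on log2 hours for each stimulus (22). Calls are 2-sided, at a Benjamini-Hochberg adjusted p under 0.05 over all genes tested. The spread is pooled over all groups, and standard errors are derived from the F statistic. The low-count filter also used all groups, so a gene with few counts in both compared groups could still be tested. With the compared libraries alone 12 chemokines and cytokines and 8 T cell ligands and checkpoints were tested, in place of 18 and 11. Ratios at single durations use a prior count of 2. The code was also run on simulated counts, in which a stimulus effect did not vary between durations except for the slopes put in. That run therefore does not cover the spread over durations that the p-values measure. Groups come from the labels, and libraries were paired by duration.

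Members and lists were chosen with earlier results of these data known. Named genes are the 15 largest increases and 10 largest decreases among called genes of 1 sign at all 4 durations (10 slopes each way), without predicted genes and pseudogenes, plus the members of 24 lists. Promoters of 6 increases were to be printed by rule, and those of Isg15 and the 4 GAS genes were chosen after their values were seen. Some members are not reported here. Alternatives were DESeq2 1.42.0, its size factors, no low-count filter, the compared groups alone, left-out durations, early or late libraries alone, no duration term, an IL-2 reference and other floors.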

Additional observations from a re-analysis of the deposited data

Results flagged for a closer look

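The IFNα1 library of 2 h stood apart from the other 3 of its group in the share of its counts taken by its 50 most abundant genes, 11.8%. It lay further from its nearest neighbour than Dixon's 95% limit for 4 samples allows, a limit that chance passes in about 1 in 20 groups, and 33 groups were examined. The limit takes no account of duration: the 12 libraries of 2 h in the series lay between 11.4% and 11.8%, the unstimulated one at 11.6%, and the unstimulated library of 12 h at 10.8%.

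The effect of IFNα1 differed between durations, by the test of the slope in edgeR, for the genes named by rule. The effect rose with each doubling of the hours by 1.13 on the log2 scale in Ly6c1, 0.98 in Ngef, 0.57 in Bdh1, 0.50 in Tmem119, 0.47 in Hist1h1c, 0.43 in Ypel3, 0.41 in Pcdh9, 0.40 in Arrdc4, 0.38 in Cdk20 and 0.37 in Txnip. It changed in the other direction by -0.54 in Dcdc2a, -0.54 in Zbtb5, -0.48 in Pccb, -0.45 in Fam208b, -0.41 in Coq7, -0.39 in Mb21d1, -0.39 in Pdk1, -0.38 in Tra2a, -0.36 in Pcolce2 and -0.36 in Cyth1. Without the 24 h libraries no slope was called for any gene, and of the 22 called slopes of listed or rule-named genes 20 lost their call without the 2 h libraries and 20 without 12 h.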

How the results depend on the processing

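Single libraries at each duration limit every result, reads of paralogs limit single family members, and depth limits genes near the filter, where 1 count was worth 0.114 to 0.161 CPM. The labels number the libraries of a group by duration alone, so the model's term for each duration is the replicate block, and libraries were paired by it. Leaving out each duration in turn gave 474 to 886 genes higher and 39 to 477 lower than unstimulated, 111 to 1265 higher and 207 to 1528 lower than IFNγ, 0 to 137 rising and 0 to 122 falling effects. The 2 and 6 h libraries alone gave 472 higher and 20 lower than unstimulated, and 67 and 105 against IFNγ. The 12 and 24 h libraries alone gave 1527 higher than IFNγ. Without this replicate block the counts were 171 and 4 against unstimulated, and 40 and 94 against IFNγ. Without the low-count filter 142 were lower than unstimulated, 614 lower than IFNγ, 26 rising and 24 falling. The compared groups alone gave 130 lower than unstimulated, 136 higher and 258 lower than IFNγ, and 35 falling. DESeq2 called 111 falling effects, and late against early durations 2 rising and 8 falling. Of the called slopes of listed or rule-named genes, 9 kept and 13 lost their call in DESeq2. With late against early durations 3 kept it and 19 lost it. With a floor of 1 CPM, at least 2-fold higher were 349, 290 and 378 genes at 2, 12 and 24 h, and lower 149, 79, 121 and 115 at 2, 6, 12 and 24 h. The cause of these shifts was not tested. The difference from IFNγ changed sign, called or not, with the 12 and 24 h libraries alone in Ifit1bl1 (-0.066), Daxx (-0.65), Mb21d1 (-0.60), Myd88 (-0.38), Trim26 (-0.45) and Tnfsf10 (-1.39). With the 2 and 6 h libraries alone it did so in Myc (0.0013). Among called differences of listed or rule-named genes, 1 changed sign in each of these settings. Over all libraries Mb21d1 differed by 0.014 and Tnfsf10 by 0.28. With left-out durations, Mb21d1 ranged from -0.33 to 0.23 and Trim26 from -0.34 to 0.26.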

Other observations

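Transcripts of type I interferons themselves were counted at low levels. Ifnb1, which encodes interferon β, had 3, 1, 7 and 6 counts in unstimulated cells at 2, 6, 12 and 24 h and 7, 11, 34 and 13 counts with IFNα1. Ifna4, an interferon α gene, had 0, 2, 10 and 2 counts without and 4, 11, 28 and 6 counts with IFNα1. With IFNγ the counts were 5, 3, 35 and 23 for Ifnb1 and 3, 3, 33 and 22 for Ifna4. In the unstimulated and IFNα1 groups both genes had their highest count at 12 h. Ifna1 had 0 counts in all of these libraries.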
